A study of Mus musculus with 6 samples.

Results

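The genes described here encode the parts of the oxidative phosphorylation (OXPHOS) machinery whose genes lie in the nucleus. They were chosen by symbol: every row of the count table named Nduf followed by a, b, c, s or v, Sdha to Sdhd, Uqcr, Cox4 to Cox8 followed by a, b or c, or Atp5. This gave 105 of the 54838 rows. Of these, 84 are subunit rows: 36 of complex I, 4 of complex II, 8 of complex III, 18 of complex IV and 18 of complex V. Another 8 are Ndufaf assembly factors of complex I, and 13 are pseudogene rows, of which Ndufb1-ps is annotated as a long non-coding RNA. Ndufa4 and Ndufa4l2 carry complex I names but are counted here with complex IV, where the Ndufa4 protein is now placed. The members lie on 19 chromosomes.

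Complexes I and II pass electrons from NADH and succinate to ubiquinone, complex III passes them to cytochrome c, and complex IV (cytochrome c oxidase) passes them to oxygen. Complexes I, III and IV pump protons while doing so, and complex V (ATP synthase) uses the resulting gradient to make ATP. All but complex II also contain subunits made from the mitochondrial genome, so their assembly needs matched supply from both genomes. Skeletal muscle is rich in mitochondria and uses its own isoforms of some complex IV subunits, encoded by Cox6a2, Cox7a1 and Cox8b in place of Cox6a1, Cox7a2 and Cox8a. In peripheral nerve, Schwann cells and axons both depend on mitochondria, and damage to either can cause neuropathy.

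RNA of sciatic nerves was sequenced at postnatal day 3, the age at which Schwann cells begin to wrap axons in myelin. Both groups were on the strain C57 Bl. The 3 conditional knockout (cKO) libraries came from mice labelled CnpCre Actl6afl/fl, in which a Cre recombinase driven by Cnp, a gene of myelinating glia, acts on a floxed Actl6a gene. The 3 wild-type (WT) libraries came from mice labelled WT, and the sources used here do not say whether these carried the Cre or the floxed alleles. The product of Actl6a, BAF53a, belongs to the BAF complex, which remodels chromatin. Nothing says if each library came from 1 animal or from several, so p-values reflect how these libraries varied, which may be in part technical. In whole nerve, fewer cells of a type and less RNA per cell cannot be told apart.

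The libraries held 31404107 to 32674317 counts in cKO and 33084003 to 36760296 in WT. Levels are given as CPM, a gene's counts per 1000000 counts of its library after TMM scaling. Actl6a itself read 42.4, 47.6 and 41.5 CPM in cKO and 48.6, 53.3 and 46.2 CPM in WT. The groups overlapped (log2 fold change -0.17, edgeR adjusted p = 0.243; -0.24 and 0.0487 without cKO replicate 2, lost with any further library left out), so the targeted gene, counted over all exons of a mixed tissue, checks the labels only weakly. The 10 Schwann lineage markers took 0.913, 0.402 and 0.832% of counts in cKO and 4.01, 3.60 and 4.02% in WT, and none of them was at 0 in any library.

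The library cKO replicate 2 stands apart, and most OXPHOS genes are high in it. The 15 skeletal muscle markers took 0.543, 6.70 and 0.639% of counts in cKO replicates 1, 2 and 3, against 0.559, 0.411 and 0.589% in WT, and none was at 0 in any library. OXPHOS subunits took 1.02, 1.95 and 1.02% of counts in cKO and 0.914, 0.975 and 0.981% in WT. Citric acid cycle genes were also highest in cKO replicate 2, with 0.183, 0.494 and 0.198% in cKO and 0.193, 0.184 and 0.188% in WT. The counts and medians over the members are therefore given with all 6 libraries and again without cKO replicate 2. Most fold changes of single genes are from the fit without it.

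**Figure D1:**
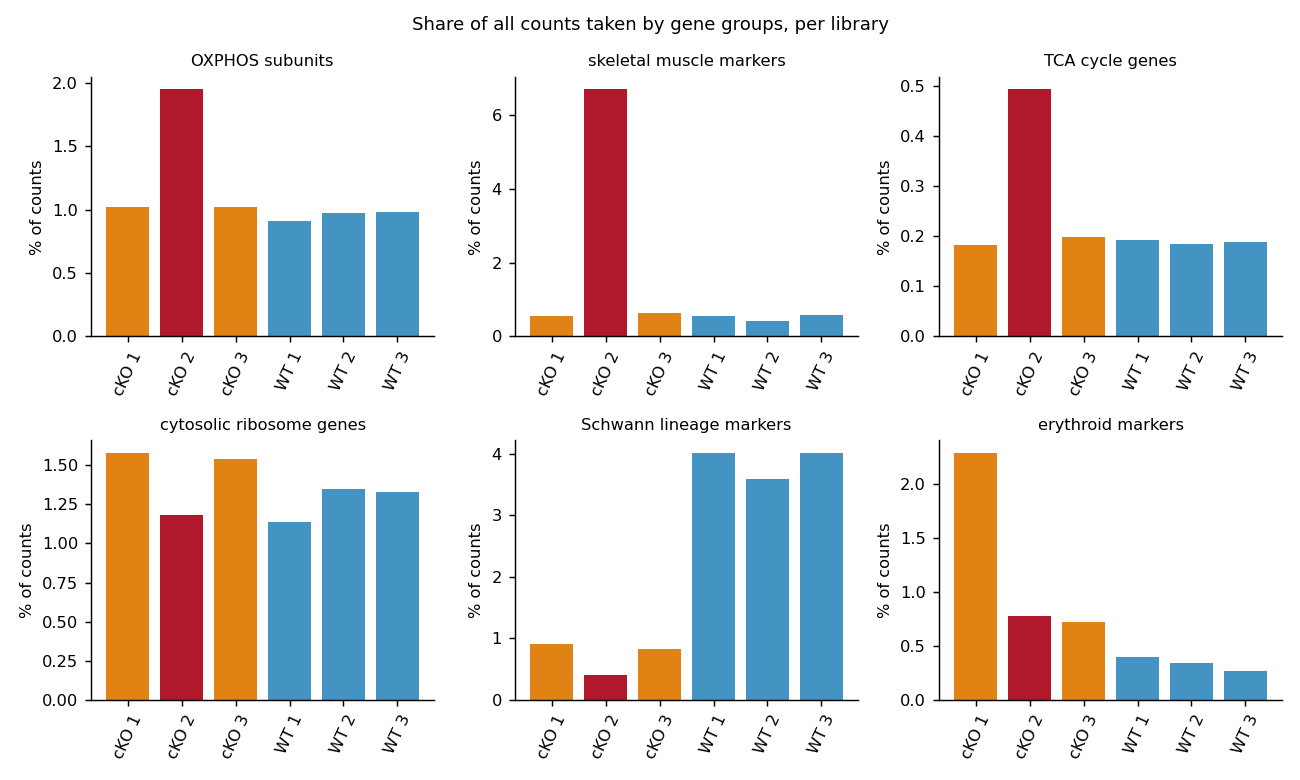
Share of all counts (percent, y axis) taken by 6 gene groups in each library (x axis: cKO 1 to 3, then WT 1 to 3). In cKO replicate 2 (dark red) muscle markers reach 6.70% and OXPHOS subunits 1.95%, while Schwann lineage markers are lower in all 3 cKO libraries than in WT.

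The muscle isoforms of complex IV showed the difference between the libraries most plainly. Cox6a2 (chromosome 7, 128205435 to 128206387, GRCm38) read 53.8, 518 and 43.8 CPM in cKO and 45.7, 27.6 and 46.3 CPM in WT. Cox7a1 read 7.66, 62.6 and 6.63 CPM in cKO and 5.57, 4.70 and 7.80 CPM in WT. Cox8b read 26.2, 202 and 18.1 CPM in cKO and 20.1, 12.6 and 23.1 CPM in WT. Each was 8.76 to 10.6 times as high in cKO replicate 2 as in the mean of cKO replicates 1 and 3, while cKO replicates 1 and 3 lay within or just above the WT range.

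The widely expressed partners moved far less. Cox6a1 read 175, 147 and 167 CPM in cKO and 137, 144 and 151 CPM in WT. Cox8a read 228, 246 and 230 CPM in cKO and 191, 214 and 216 CPM in WT. Cox7a2 read 174, 316 and 169 CPM in cKO and 136, 168 and 162 CPM in WT. Only Cox7a2 of these 3 was clearly higher in cKO replicate 2 than in the other cKO libraries, and Cox6a1 was lower there.

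Per kilobase of exon, a scale on which genes can be roughly set against each other, the level of Cox6a2 was 0.318, 3.65 and 0.27 times that of Cox6a1 in cKO and 0.344, 0.198 and 0.316 times in WT. The Cox8b level was 0.174, 1.25 and 0.119 times that of Cox8a in cKO and 0.159, 0.0891 and 0.162 times in WT. The Cox7a1 level was 0.0778, 0.35 and 0.0694 times that of Cox7a2 in cKO and 0.0723, 0.0493 and 0.0848 times in WT. The muscle isoform was thus above the widely expressed one in cKO replicate 2 alone, and there for Cox6a2 and Cox8b but not for Cox7a1. Some muscle isoform transcript was present in all 6 libraries.

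**Figure D2:**
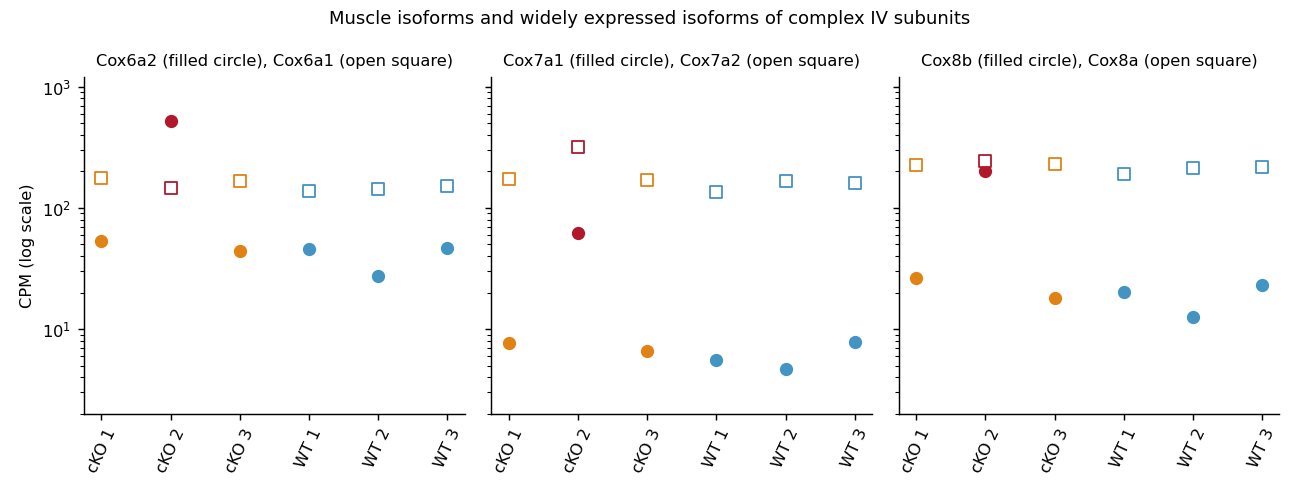
Level of the muscle isoform (filled circle) and the widely expressed isoform (open square) of 3 complex IV subunits, in CPM on a log scale (y axis), in each library (x axis, cKO then WT). Cox6a2, Cox7a1 and Cox8b rise to 518, 62.6 and 202 CPM in cKO replicate 2 alone.

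The promoters of 3 of these isoform genes are shown, a muscle gene, its widely expressed partner and another widely expressed gene, because they hold different matches. Each sequence is the 250 bases before the transcription start in the RefSeq annotation of GRCm38.p6, read 5′ to 3′ on the gene's strand. Capitals mark matches to the letters of 2 factors known to bind OXPHOS promoters, NRF1 (a palindromic motif of 10 letters rich in G and C) and the ETS family that includes GABPA (CCGGAAG), on either strand. The first belongs to Cox6a1 at chr5:115348959-115349208 (minus strand), the next to Cox8a at chr19:7217617-7217866 (minus strand) and the last to Cox8b at chr7:140900447-140900696 (minus strand).
Cox6a1: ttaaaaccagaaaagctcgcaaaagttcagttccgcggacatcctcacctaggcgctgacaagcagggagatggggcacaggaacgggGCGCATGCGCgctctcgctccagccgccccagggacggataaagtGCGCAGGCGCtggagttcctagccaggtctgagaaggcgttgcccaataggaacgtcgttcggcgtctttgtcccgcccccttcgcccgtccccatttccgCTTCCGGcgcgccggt
Cox8a: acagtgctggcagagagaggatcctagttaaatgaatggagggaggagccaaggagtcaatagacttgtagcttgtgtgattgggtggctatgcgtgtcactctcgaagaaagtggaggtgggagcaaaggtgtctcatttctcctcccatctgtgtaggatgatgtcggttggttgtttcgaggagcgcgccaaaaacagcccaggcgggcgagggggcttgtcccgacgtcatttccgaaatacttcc
Cox8b: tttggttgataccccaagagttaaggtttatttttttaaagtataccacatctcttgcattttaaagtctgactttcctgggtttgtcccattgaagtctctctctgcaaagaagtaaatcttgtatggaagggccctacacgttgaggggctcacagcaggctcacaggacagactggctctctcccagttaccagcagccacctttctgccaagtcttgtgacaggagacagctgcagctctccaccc
Cox6a1 holds both NRF1 matches and then an ETS match close to the start, 3 in all. Cox8a held an ETS match only when the 50 bases after the start were included, so none is marked in its sequence. Cox8b had no match to either set of letters in this window. The promoters of the pair Cox7a1 and Cox7a2, not printed, had no match to either as well. The muscle and widely expressed isoforms thus differed in 1 of the 2 pairs for which both promoters were found, and there only by that ETS match of Cox8a.

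Promoters were found for 74 member genes (79 promoters, 300 bases each with the 50 bases after the start). The NRF1 letters were in 25.3% of them, against 4.60% of 32851 promoters of all genes. The ETS letters were in 22.8%, against 8.86% of all, and the YY1 letters (AANATGGC) also in 22.8%, against 6.05%. The letters of the estrogen-related receptors (AAGGTCA) were in 10.1%, against 4.72%. These shares describe sequence and not binding. Members called higher and members called lower without cKO replicate 2 both held matches. Those higher were Ndufa8 (NRF1), Cox6a1 (NRF1 and ETS), Atp5g3 (NRF1 and estrogen-related receptors), Uqcr11 (ETS) and Ndufc1 (YY1). Those lower were Sdha (NRF1), Ndufb11, Atp5b and Ndufaf3 (YY1), Atp5l (ETS and estrogen-related receptors) and Ndufs8 (ETS and YY1).

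With all 6 libraries, the OXPHOS genes were as a group shifted upwards in cKO, but almost no single gene passed the test. Of the 105 rows, 95 passed the filter on low counts, and 91 of these had a positive log2 fold change. Their median log2 fold change was 0.52, and that of all 18775 genes tested was 0.04. In edgeR's quasi-likelihood test at an adjusted p below 0.05, 1 member was called higher and 0 lower. Over all genes tested, 18.8% were called, 8.55% higher and 10.3% lower, and of the members tested, 1.05%. At an unadjusted p below 0.05 there were 11 of 95 members higher and 0 lower, beside 3224 higher and 3242 lower of the 18775 genes. DESeq2 called 7 members higher and 0 lower, among them the subunits Ndufab1, Sdhc, Ndufc1, Cox6c and Cox6b2. These were 7.29% of the members it tested, and its share over all genes is not reported here.

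The 1 call was Cox6c2, a processed pseudogene on chromosome 12 (56373593 to 56373823) that shares 52.8% of its 50-base words with other transcripts, most with Cox6c. It read 29.9, 32.9 and 27.9 CPM in cKO and 16.8, 21.7 and 22.6 CPM in WT, and the groups did not overlap. Its log2 fold change was 0.57 (95% interval 0.24 to 0.89, adjusted p = 0.0319). Reads of Cox6c can be counted here, so the value is uncertain. Leaving out any library but cKO replicate 2 took its adjusted p above 0.05, to as much as 0.0929, and without cKO replicate 1 Sdhc was called instead (0.68, adjusted p = 0.048).

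The upward shift was alike across the complexes and came with cKO replicate 2. Median log2 fold changes were 0.50 for complex I, 0.55 for complex II, 0.51 for complex III, 0.52 for complex IV and 0.54 for complex V, and without cKO replicate 2 they were 0.08, -0.05, 0.03, 0.20 and 0.10. In cKO replicate 2 the level was over 1.5 times the mean of cKO replicates 1 and 3 for 69 of 81 subunits tested, with a median ratio of 2.01, against 0.963 over all genes. After the 3 muscle isoforms, the highest ratios were those of Atp5b (3.54), Ndufs1 (3.53), Cox5a (3.34), Uqcrc2 (3.33) and Sdha (3.23). It was below 1 for 4 subunits, all of complex IV, namely Cox6a1, Cox6b2, Cox7a2l and Ndufa4l2.

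**Figure D3:**
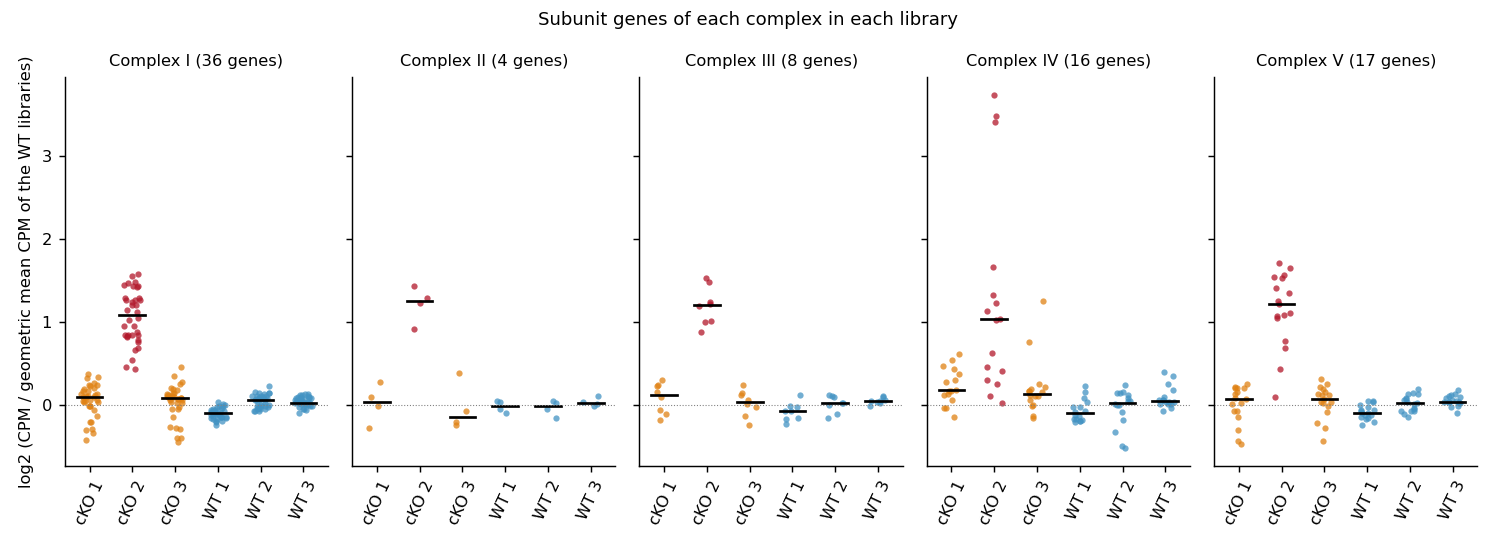
Each point is a subunit gene, given as the log2 ratio of its CPM to its geometric mean CPM in the 3 WT libraries (y axis), by library (x axis, cKO then WT) and complex, with black lines at the medians. In cKO replicate 2 the medians lie between 1.03 and 1.26, and in the other 5 libraries between -0.20 and 0.20.

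Without cKO replicate 2, OXPHOS genes moved together far less: some were modestly higher in cKO and others modestly lower. Of 95 members tested, 13 were called higher and 9 lower, with a median log2 fold change of 0.10, against 0.01 for all genes. The log2 fold change was positive for 66 members and negative for 29, against 9828 and 9428 of all genes. Over all 19256 genes tested, 35.4% were called, 17.8% higher and 17.6% lower. Of the members tested, 23.2% were called. At an unadjusted p below 0.05, 19 of 95 members were higher and 13 lower, beside 4399 and 4248 of the 19256 genes. The DESeq2 share over all genes is not reported here for this fit either. By complex, the share of tested subunits called was 22.2% for I, 50% for II, 25% for III, 25% for IV and 17.6% for V. For the Ndufaf assembly factors it was 12.5%. The 22 called members lay between -0.56 and 0.67 on the log2 scale, and the fit rests on 2 cKO libraries against 3 WT libraries. Leaving out 1 further library changed the counts to 5 higher and 9 lower without WT replicate 1, 8 and 6 without WT replicate 2, 9 and 5 without WT replicate 3, 7 and 7 without cKO replicate 1, and 8 and 6 without cKO replicate 3. Of the 22 calls, 8 held whichever of these was left out, and the other calls are named as lost where they are described. In the same fit the muscle markers had a median log2 fold change of 0.43 (3 called higher and 1 lower of 15), the macrophage markers 1.02 (8 higher of 8) and the Schwann lineage markers -1.42 (1 higher and 9 lower of 10). Of the erythroid markers 0 of 7 were called (6 and 0 at an unadjusted p below 0.05, 6 and 0 by DESeq2), with a median of 2.09, and of the fibroblast markers 3 of 6 were higher (median 0.39). With all 6 libraries, 4 of 7 erythroid, 7 of 8 macrophage and 1 of 6 fibroblast markers were called higher. In that fit 8 of 10 Schwann lineage markers were lower, and 0 of 15 muscle markers were called. The erythroid list took 2.29, 0.779 and 0.722% of counts in cKO and 0.396, 0.342 and 0.271% in WT, the fibroblast list 2.24, 1.52 and 2.25% in cKO and 1.93, 1.85 and 1.85% in WT, and the macrophage list 0.137, 0.0845 and 0.11% in cKO and 0.0576, 0.066 and 0.0643% in WT, with no gene of these lists at 0 in any library. The part of these cell types in the OXPHOS values was not tested.

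**Figure D4:**
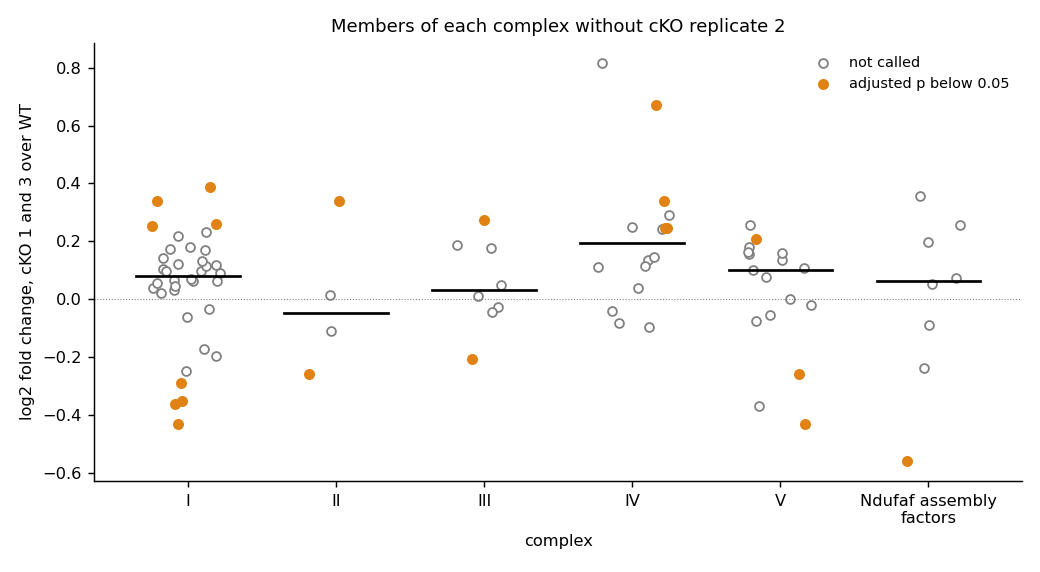
Log2 fold change of each tested member, cKO replicates 1 and 3 over WT (y axis), by complex (x axis); filled points passed an adjusted p of 0.05 and black lines are medians. Complex IV has 4 filled points above 0 and no filled point below it, and complexes I, II, III and V have filled points on both sides.

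Complex I had 4 subunits higher and 4 lower among 36, and 2 to 4 higher and 3 to 6 lower with a further library left out. The share called was 22.2% for the complex and 28.6% for its core subunits, beside 35.4% of all genes tested. Of the 7 core subunits, which carry the flavin and the iron-sulfur clusters, 0 were called higher and 2 lower (0 and 4 at an unadjusted p below 0.05, 0 and 4 by DESeq2), with a median log2 fold change of -0.17. At that unadjusted threshold, 4399 of all 19256 genes tested were higher and 4248 lower. The other direction was seen in Ndufs7, with 63.8 and 64.5 CPM in cKO replicates 1 and 3 (159 in replicate 2) and 53.5, 56.7 and 60.6 CPM in WT, and in Ndufs3, and neither was called (0.17 and 0.045, adjusted p = 0.12 and 0.719). Ndufs1, the large iron-sulfur subunit at the tip of the matrix arm, read 97.2 and 93.9 CPM in cKO replicates 1 and 3 (337 in replicate 2) and 122, 123 and 124 CPM in WT. Its log2 fold change was -0.36 (95% interval -0.52 to -0.21, adjusted p = 0.00167), and with cKO replicate 2 it was 0.52 with an interval of -0.88 to 1.92. Ndufs8, another iron-sulfur subunit, read 77.2 and 77.1 CPM in cKO replicates 1 and 3 (159 in replicate 2) and 89.1, 102 and 91.4 CPM in WT. It fell by 0.29 on the log2 scale (adjusted p = 0.0148), and the call was lost without WT replicate 2 or cKO replicate 3 (adjusted p 0.0521 to 0.0694).

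The accessory subunits, which surround the core, went both ways, 4 higher and 2 lower among 29 (median 0.10). Ndufab1, the mitochondrial acyl carrier protein, read 27.6 and 30.3 CPM in cKO replicates 1 and 3 (53.1 in replicate 2) and 22, 21 and 23.2 CPM in WT. Ndufc1, a small membrane subunit, read 36.7 and 36.8 CPM in cKO replicates 1 and 3 (85.0 in replicate 2) and 26.8, 28.5 and 31.7 CPM in WT. Both were higher in every cKO library than in any WT library, with log2 fold changes of 0.39 (adjusted p = 0.00556) and 0.34 (adjusted p = 0.0115). Ndufa8 (0.26) and the X-linked Ndufa1 (0.25) were also called higher; each call held in 1 of the 5 further leave-outs, with adjusted p up to 0.0847 for Ndufa8 and 0.123 for Ndufa1.

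On the other side, Ndufa13 (also known as GRIM-19), a membrane-arm subunit, read 135 and 132 CPM in cKO replicates 1 and 3 (243 in replicate 2) and 168, 189 and 183 CPM in WT. It fell by 0.43 on the log2 scale (95% interval -0.60 to -0.26, adjusted p = 0.000876). Exons of Tssk6 overlap 30% of its exonic bases, and counting did not use strand, so the value is uncertain. Ndufb11, X-linked and part of the membrane arm, read 109 and 102 CPM in cKO replicates 1 and 3 (212 in replicate 2) and 122, 141 and 140 CPM in WT, and fell by 0.35 on the log2 scale (adjusted p = 0.00596). Exons of Rbm10 overlap 12.9% of its bases. For both genes cKO replicates 1 and 3 lay below, and cKO replicate 2 above, all 3 WT libraries.

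Complex II is succinate dehydrogenase, the only complex made wholly from nuclear genes and also an enzyme of the citric acid cycle. Its catalytic flavoprotein and 1 of its membrane anchors went opposite ways without cKO replicate 2. Sdha, the flavoprotein, read 176 and 180 CPM in cKO replicates 1 and 3 (575 in replicate 2) and 220, 206 and 212 CPM in WT, a fall of 0.26 on the log2 scale (adjusted p = 0.0162). That call was lost without WT replicate 3 or cKO replicate 1 (adjusted p 0.0553 to 0.0604). Sdhc, which helps hold the heme and ubiquinone in the membrane, read 103 and 111 CPM in cKO replicates 1 and 3 (160 in replicate 2) and 86.6, 76.1 and 91.5 CPM in WT. It was higher by 0.34 on the log2 scale (adjusted p = 0.00863), and the call was lost without cKO replicate 3 (adjusted p = 0.0582). Sdhb, the iron-sulfur subunit, read 146 and 130 CPM in cKO replicates 1 and 3 and 132, 139 and 138 CPM in WT, and Sdhd, the other anchor, read 157 and 137 CPM in cKO replicates 1 and 3 and 148, 164 and 163 CPM in WT. Neither was called (log2 fold changes 0.02 and -0.11).

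Complex III had 1 of 8 subunits called in each direction, and both calls were fragile. Uqcr11, a small subunit, read 60 and 57.3 CPM in cKO replicates 1 and 3 (115 in replicate 2) and 46.0, 49.2 and 50.1 CPM in WT, and was higher by 0.27 (adjusted p = 0.0171). Without WT replicate 1 or cKO replicate 1 its adjusted p was 0.0546 to 0.0771. Uqcrc2, a core protein of the matrix side, read 162 and 156 CPM in cKO replicates 1 and 3 (530 in replicate 2) and 181, 187 and 182 CPM in WT. It fell by 0.21 (adjusted p = 0.0426), a call lost with any further library left out (0.0511 to 0.17), and exons of Pdzd9 overlap 19.8% of its bases. Uqcrfs1, the Rieske iron-sulfur protein that transfers the electrons, was not called (-0.04, adjusted p = 0.718), nor was the hinge protein Uqcrh (0.05, adjusted p = 0.73).

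In complex IV, 4 subunits were higher and 0 lower of 16 tested (5 and 0 at an unadjusted p below 0.05, 5 and 0 by DESeq2), and 1 to 4 higher and 0 lower with a further library left out. The 25% called stand beside 35.4% of all genes tested in this fit, 17.8% higher and 17.6% lower. Cox6b2, an isoform of Cox6b1 best known from testis, read 10.3 and 11.4 CPM in cKO replicates 1 and 3 (8.33 in replicate 2) and 5.96, 7.98 and 6.43 CPM in WT. Its log2 fold change was 0.67 (95% interval 0.36 to 0.99, adjusted p = 0.00294), and with all 6 libraries it was 0.56 (adjusted p = 0.0689). It was thus above WT in all 3 cKO libraries, at a level 0.0251, 0.0108 and 0.0281 times that of Cox6b1 per kilobase in cKO and 0.0177, 0.0193 and 0.0169 times in WT. Cox6b1 itself read 262, 494 and 259 CPM in cKO and 215, 265 and 243 CPM in WT and was not called.

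Cox6c, a small membrane subunit, read 249 and 221 CPM in cKO replicates 1 and 3 (285 in replicate 2) and 160, 206 and 190 CPM in WT, higher by 0.34 (adjusted p = 0.0267). Cox6a1, with the values given above, was higher by 0.25 (adjusted p = 0.0218), and the zinc-binding subunit gene Cox5b also by 0.25 (adjusted p = 0.0271). These 3 calls were not stable: Cox6c was lost without WT replicate 1 or 3 or cKO replicate 1 (adjusted p up to 0.18), Cox6a1 without WT replicate 1 or 2 or cKO replicate 1 (up to 0.107), and Cox5b on leaving out any WT library or cKO replicate 1 (up to 0.145). Ndufa4l2, the relative of Ndufa4 that is known to rise in hypoxia, read 5.71, 6.93 and 12.1 CPM in cKO and 5.20, 4.76 and 5.20 CPM in WT. The highest value came from cKO replicate 3 alone. Without cKO replicate 2 edgeR did not call it (0.82, 95% interval 0.11 to 1.52, adjusted p = 0.0749) and DESeq2 did. With cKO replicate 3 as the only cKO library it was called (1.25, adjusted p = 2.14e-05), and with cKO replicate 1 alone it was not (0.18). Cox8c and Cox7b2 had at most 1 count in any library and were not tested, and Cox4i1, the main subunit of its kind but outside the symbol rule, read 405, 599 and 417 CPM in cKO and 304, 306 and 361 CPM in WT (0.34, adjusted p = 0.00918 without cKO replicate 2, lost at 0.0558 without WT replicate 2).

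In complex V, 1 subunit was higher and 2 lower of 17 tested, and 0 higher and 0 to 1 lower with a further library left out. The 17.6% called stand beside 35.4% of all genes tested. Atp5b, the catalytic beta subunit and the member with the most counts, read 792 and 836 CPM in cKO replicates 1 and 3 (2881 in replicate 2) and 1009, 941 and 963 CPM in WT. It fell by 0.26 (95% interval -0.44 to -0.07, adjusted p = 0.0307), but the call held only without cKO replicate 3 among the 5 further leave-outs (adjusted p otherwise 0.0645 to 0.108). Its partner Atp5a1, the alpha subunit, read 589 and 635 CPM in cKO replicates 1 and 3 and 642, 576 and 640 CPM in WT and was not called (-0.02, adjusted p = 0.89). Atp5l, subunit g of the membrane part, read 7.63 and 7.60 CPM in cKO replicates 1 and 3 (11 in replicate 2) and 10.5, 9.77 and 10.5 CPM in WT, a fall of 0.43 (adjusted p = 0.015, lost at 0.0505 to 0.0575 without WT replicate 3 or cKO replicate 3).

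The c ring of ATP synthase, through which protons flow, is built from a protein that Atp5g1, Atp5g2 and Atp5g3 all encode in the same mature form. Atp5g3 had the highest level of the 3, at 228, 648 and 230 CPM in cKO and 190, 193 and 209 CPM in WT. It was called higher by 0.21 without cKO replicate 2 (adjusted p = 0.0456), a call lost with any further library left out (0.0559 to 0.131). Atp5g1 read 20.2, 64.3 and 22.8 CPM in cKO and 21.9, 21.1 and 23.7 CPM in WT, and Atp5g2 1.49, 2.80 and 1.71 CPM in cKO and 1.93, 2.16 and 2.11 CPM in WT. Neither was called. Atp5g1 shares 11.1% and Atp5g2 38.4% of their 50-base words with other transcripts, and Atp5g3 0%, so reads of the first 2 can be lost to copies. The same limit holds for Atp5l, described above, which shares 9.99% of its words.

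Among the 8 Ndufaf assembly factors, 0 were higher and 1 lower (1 and 2 at an unadjusted p below 0.05, 0 and 1 by DESeq2). Ndufaf3, needed early in the assembly of complex I, read 11.9 and 11.7 CPM in cKO replicates 1 and 3 (23.6 in replicate 2) and 15.7, 19.5 and 16.8 CPM in WT. Its log2 fold change of -0.56 (95% interval -0.82 to -0.30, adjusted p = 0.00258) was the most negative of all members, and the call held with any further library left out. Of the pseudogene rows, 6 of 13 were tested, and Cox6c2 (0.50) and Ndufab1-ps (0.39) were called higher. Ndufab1-ps shares 74.2% of its 50-base words with other transcripts, most with Ndufab1, and its call was lost on leaving out any WT library or cKO replicate 3 (adjusted p up to 0.255).

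**Figure D5:**
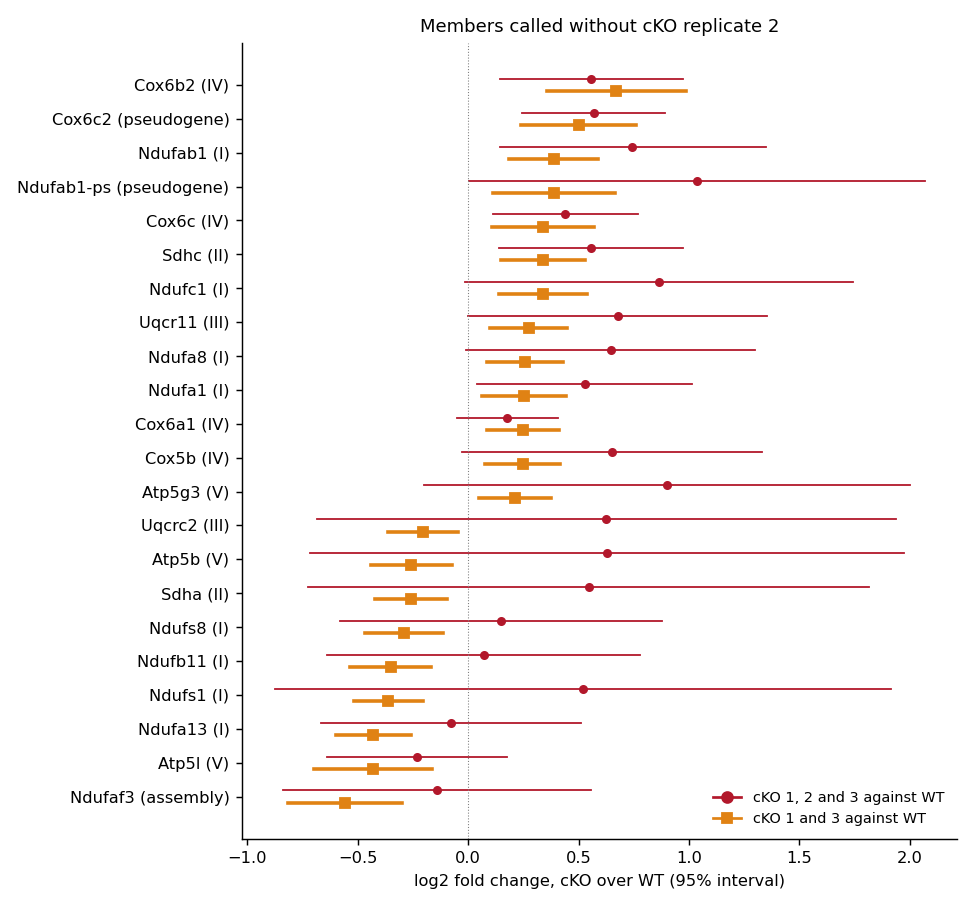
Log2 fold change of cKO over WT with its 95% interval (x axis) for the 22 members called without cKO replicate 2 (y axis, complex in brackets). Circles are all 3 cKO libraries against WT and squares are cKO replicates 1 and 3 against WT; Atp5b, Ndufb11, Ndufs1, Ndufs8, Sdha and Uqcrc2 change sign between them.

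The 6 members that change sign in that plot are all among those called lower without cKO replicate 2. Across the 81 subunits the Spearman correlation of exonic length (median 1587 bases) with the log2 fold change without cKO replicate 2 was -0.325, and across all 19256 genes (median 3607 bases) it was -0.107. These points share the same 5 libraries, and the values are a description.

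Genes of the citric acid cycle, which supplies complexes I and II with electrons, were set beside the members. With all 6 libraries, 1 of 14 citric acid cycle genes was higher and 0 lower (median log2 fold change 0.71; 1 and 0 at an unadjusted p below 0.05, 1 and 0 by DESeq2). Without cKO replicate 2, 1 was higher and 3 lower (median -0.04). These are 7.14% and 28.6% of the list called, beside 18.8% and 35.4% of all genes tested. Cs, citrate synthase, read 156, 530 and 176 CPM in cKO and 215, 180 and 199 CPM in WT, a fall of 0.25 without cKO replicate 2 (adjusted p = 0.0452). Idh3a, of the NAD-linked isocitrate dehydrogenase, also fell (-0.25, adjusted p = 0.0254). Both calls were lost without WT replicate 3 or cKO replicate 1, that of Cs also without WT replicate 1 (adjusted p up to 0.244) and that of Idh3a also without WT replicate 2 (up to 0.154). Suclg2, of the succinyl-CoA ligase, was the gene higher in both fits, at 33.3, 41.9 and 35.6 CPM in cKO and 27.1, 27.5 and 28.7 CPM in WT (0.41, adjusted p = 0.0404 with all libraries, a call lost when any WT library or cKO replicate 3 was left out, at up to 0.15).

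Among 40 assembly factors outside the symbol rule, 5 were higher and 1 lower without cKO replicate 2 (median 0.02), and 1 and 0 with all libraries (5 and 0 at an unadjusted p below 0.05, 2 and 0 by DESeq2). The share called was 15% and 2.5% in these 2 fits, beside 35.4% and 18.8% of all genes tested. The 1 gene in both was Coa4, a complex IV assembly factor, at 7.66, 9.83 and 8.29 CPM in cKO and 4.27, 5.53 and 5.20 CPM in WT (log2 fold change 0.78, adjusted p = 0.02 with all libraries, lost on leaving out any WT library or cKO replicate 3, at up to 0.0875). Uqcc2, which helps assemble complex III, read 64.0, 106 and 68.0 CPM in cKO and 45.6, 52.9 and 48.7 CPM in WT, and was higher without cKO replicate 2 (0.43, adjusted p = 0.00173). Both calls without cKO replicate 2 held with any further library left out, while the counts over the list were then 2 to 4 higher and 0 to 1 lower.

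The ribosomes that make the mitochondrially encoded subunits were tested through 76 of their protein genes: 14 were higher and 2 lower without cKO replicate 2 (median 0.09). With all libraries 6 were higher and 0 lower (25 and 2 at an unadjusted p below 0.05, 8 and 0 by DESeq2). The share called was 21.1% without cKO replicate 2 and 7.89% with all libraries, beside 35.4% and 18.8% of all genes tested. Mrpl10 read 50.5, 54.4 and 49.7 CPM in cKO and 35.4, 36.1 and 37 CPM in WT, with no overlap of the groups and little difference between cKO replicate 2 and the others (0.51, adjusted p = 0.00683 with all libraries, at most 0.0478 without any 1 library). With a further library left out of the fit without cKO replicate 2, 8 to 13 of the list were higher and 1 to 3 lower. Genes of the cytosolic ribosome, another set of short abundant transcripts, counted 18 higher and 0 lower of 79 without cKO replicate 2 (26 and 1 at an unadjusted p below 0.05, 18 and 0 by DESeq2), with a median of 0.19, and 9 to 19 higher and 0 to 1 lower with a further library left out. Without cKO replicate 2 the share called was 22.8%, all higher, beside 17.8% of all genes higher and 17.6% lower. With all libraries 1 of 79 was higher and 0 lower (median 0.16), a share of 1.27% beside 18.8% of all genes tested.

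Of 14 regulators of mitochondrial gene expression and DNA copying, 0 were higher and 1 lower with all libraries (0 and 2 at an unadjusted p below 0.05, 0 and 1 by DESeq2), and 0 higher and 3 lower without cKO replicate 2 (0 and 3 at an unadjusted p below 0.05, 0 and 3 by DESeq2). These are 7.14% and 21.4% of the list called lower, beside 10.3% and 17.6% of all genes tested. With a further library left out, the counts without cKO replicate 2 were 0 to 1 higher and 1 to 3 lower. Twnk, the helicase of mitochondrial DNA replication, read 16.5, 18.4 and 14.7 CPM in cKO and 26.6, 24.2 and 26.9 CPM in WT. It fell by 0.65 with all libraries (95% interval -0.92 to -0.38, adjusted p = 0.0111) and by 0.73 without cKO replicate 2 (adjusted p = 0.0001), and cKO replicate 2 lay with the other cKO libraries. With all libraries the call was lost without WT replicate 1 or 3 (adjusted p up to 0.0607), and without cKO replicate 2 it held throughout. Polrmt, the mitochondrial RNA polymerase, and Polg, the mitochondrial DNA polymerase, fell without cKO replicate 2 (-0.34 and -0.27, adjusted p = 0.0235 and 0.0301), calls that were lost on leaving out any WT library or cKO replicate 1 (up to 0.109 and 0.201). Nrf1 (0.16), Gabpa (-0.06), Yy1 (-0.03), Esrra (-0.12) and Ppargc1a (-0.20), whose products regulate OXPHOS genes, were not called in that fit. Ppargc1a read 8.87, 23.5 and 9.20 CPM in cKO and 10.8, 10.5 and 9.63 CPM in WT, with cKO replicate 2 again the highest. All 37 mitochondrially encoded rows read 0 in each of the 6 libraries, so the subunits made inside mitochondria are not analysed here.

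Brown fat, another tissue rich in mitochondria, was checked through 6 markers. Ucp1, its defining gene, read 0.213, 0.251 and 0.20 CPM in cKO and 0.0602, 0.0288 and 0.137 CPM in WT, and Elovl3 was at 0 in WT replicate 3. The list took 0.00201, 0.00141 and 0.000832% of counts in cKO and 0.00134, 0.00191 and 0.00644% in WT. Cidea was highest in cKO replicate 2, at 0.638, 5.89 and 1.63 CPM in cKO and 1.17, 0.403 and 0.93 CPM in WT (1.69, adjusted p = 0.222 with all libraries). With all libraries 0 of the 3 genes tested were called (0 at an unadjusted p below 0.05 and 0 by DESeq2), and the part of brown fat in the OXPHOS values was not tested.

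Levels per kilobase differed widely between subunits of the same complex. In WT, Cox8a averaged 380 ± 25.4 CPM per kilobase and Cox6b1 340 ± 35.1 (SD, n = 3 each), and Atp5b 229 ± 8.24 and Uqcr10 221 ± 20.9 followed. In cKO replicates 1 and 3, Cox8a averaged 421 ± 2.39 CPM per kilobase and Cox6b1 368 ± 3.14, followed by Uqcr10 with 250 ± 15.5 and Cox6a1 with 244 ± 7.59 (SD, n = 2 each), and Atp5b stood at 192 ± 7.30. In WT, Atp5b and Uqcr10 did not differ by more than their spread, while Cox8a was above Cox6b1 in each of the 3 libraries (351, 393 and 396 against 304, 374 and 343 CPM per kilobase). With cKO replicate 2 included, the SD of Atp5b over the 3 cKO libraries was 282 around a mean of 355 CPM per kilobase.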

How the data were processed

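The authors deposited 1 table of counts of fragments per gene, not normalized, which also lists every gene's exonic length. Per the file headers, featureCounts 1.6.1 counted exons of the Ensembl GRCm38 release 95 models with mapping quality of at least 20, without regard to strand, so a gene and its antisense partner cannot be told apart, and reads that fit near-identical copies can be lost. Subread 2.0 and DESeq2 1.3 are listed, without a role, in the submitters' processing notes. Per the labels, libraries were made from 150 ng of RNA.

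The titles of the samples gave the groups and the replicate numbers, and 0 count columns of other samples were left out. Symbols came from GENCODE M21, which matched 54809 of 54838 identifiers and left 29 without one. All rows of the table carry a gene identifier. No replicates agreed within sampling noise (chi-square over its degrees of freedom 28.8 to 312 for pairs of cKO and 8.26 to 14.9 for pairs of WT libraries), and each counted as 1 sample.

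Tests used edgeR 4.0.16 in R 4.3.3 (filterByExpr with a minimum count of 10, TMM, quasi-likelihood F test, 2-sided, 4 residual degrees of freedom, or 3 without cKO replicate 2), fitted on the whole table. Adjusted p-values are Benjamini-Hochberg over all genes tested, and genes below 0.05 were called. The script was tested on simulated data. Intervals are 95% and derived from the test statistic. DESeq2 1.42.0, RLE scaling, no filter, a replicate block and leaving out each library were alternatives. The whole set of fits that leave out cKO replicate 2 and change 1 more choice was added after seeing the data.

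The members and all gene lists were chosen with earlier results of these data known. Named genes were, per complex, up to 5 called with the smallest p in each fit, the 2 with the highest level per kilobase, the most extreme fold changes, and a fixed set of isoforms. Other genes named, among them Cox5a, Ndufa1, Ndufa8, Ndufs3, Ndufs7, Ndufs8, Cox7b2, Uqcrfs1 and those of the other lists, were picked with their values known. Promoter letters are from RefSeq GRCm38.p6 and were read only as text. Proteins of the isoforms are not analysed here. The values of 1 further gene of the citric acid cycle list are not reported here.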

Additional observations from a re-analysis of the deposited data

How the results depend on the processing

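With all 6 libraries, 1 member was called higher. That count was 3 with no filter on low counts, 7 by DESeq2 and 0 with subunits only, and ranged from 0 to 13 when each library was left out in turn, the highest being without cKO replicate 2. The members called lower ranged from 0 to 9, and all genes called from 449 to 3425 higher and 790 to 3398 lower, with the highest counts again without cKO replicate 2. Median log2 fold changes ranged from 0.081 to 0.671 for complex I, -0.047 to 0.775 for complex II and 0.032 to 0.728 for complex III, the lowest of each being without cKO replicate 2. The same omission reversed the sign of Atp5b (range -0.257 to 0.934), Ndufb11 (-0.351 to 0.258), Ndufs1 (-0.362 to 0.823), Ndufs8 (-0.289 to 0.323), Sdha (-0.258 to 0.826) and Uqcrc2 (-0.206 to 0.916). Without cKO replicate 2 and 1 further library, 5 to 9 members were higher and 5 to 9 lower, and median log2 fold changes ranged from -0.144 to 0.042 for complex II, -0.002 to 0.123 for complex III, 0.118 to 0.235 for complex IV and 0.026 to 0.156 for complex V. Where 1 cKO library was left, it was assumed to vary like the WT libraries. The cause of these changes was not tested.

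With the replicate number as a block, 0 members were higher with all libraries, and 744 genes were higher and 1108 lower. Without cKO replicate 2 the block gave 3 members higher and 3 lower, beside 2438 higher and 2371 lower of all 19256 genes tested. No pairing by number is stated in the labels. Deviations from the group means of libraries with the same number correlated at -0.223, -0.231 and -0.0797. No library correlated most with the one that shares its number. These values cannot exclude a pairing, because cKO replicate 2 lies far from the other cKO libraries and so shapes the deviations of all of them.

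Of the 105 members, 10 had too few counts to be tested, so no difference could be detected in them at this depth. Among tested genes, small differences were mostly missed as well. In the simulated data, with 3 libraries per group, the test found 1.79% of the genes set to differ 1.5 times. It found 37.9% of those set to differ 2 times, and 92.4% at 4 times. The noise was set from the fit of all 6 libraries, cKO replicate 2 included, and not from each gene's own spread. The median member was 1.43 times as high in cKO with all 6 libraries. Members not called in that fit can therefore still differ. The fits without cKO replicate 2 have 2 cKO libraries, and few of their calls held whichever further library was left out (8 of 22). DESeq2, RLE scaling and no filter reversed no named gene in either fit.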
